A study of Mus musculus with 15 samples.

Results

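The comparison described here set the cortex of *Snord116del* mice against that of wild-type (WT) mice in the middle of the light phase, at Zeitgeber time (Zt) +6, gene by gene. Its members were all 23235 genes of the RNA-seq table, taken from the rows that pair the WT and *Snord116del* groups at Zt +6, so no gene was chosen for its values. Of these, 10297 genes that averaged 1 FPKM or more across the 4 groups of the table were tested by the fold rule below. FPKM is the number of fragments scaled to transcript length and to the mapped fragments of the library, and the table gives 1 FPKM value for each group and none for each mouse.

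The Zt +6 groups held 5 of the 15 samples of the series, namely 3 WT and 2 *Snord116del* males, all adult. The WT mice were C57BL/6J by their labels. The *Snord116del* mice were B6(Cg)-Snord116tm1.1Uta/J heterozygotes that had inherited the deletion from the father, and the methods describe both genotypes as littermates from crosses of deletion males with C57BL/6 females. No mouse received a treatment, and each lived under a cycle of equal light and dark periods, so that Zt +6 fell in the light and Zt +16 in the dark. The deletion is germline and not limited to a cell type, and bulk cortex was used. The question was which cortical transcripts differ in level when the paternal *Snord116* locus is missing.

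*Snord116* is an array of small nucleolar RNA genes in the imprinted Prader-Willi domain, expressed from the paternal chromosome only. The array lies in the introns of a long host transcript whose spliced exons form *116HG*, a long noncoding RNA that stays near its own locus as a nuclear cloud in neurons. Small deletions over this array are found in people with Prader-Willi syndrome, a disorder of growth, appetite and sleep, and mice with the paternal deletion are small and lean.

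With 1 value per group there is no replicate check, no error and no p-value, so every difference below is a difference between the deposited group values. A gene was called past the fold rule when its FPKM + 1 differed by at least 1.5-fold between the groups with at least 1 FPKM in the higher one. All log2 changes are log2 of the ratio of FPKM + 1, *Snord116del* over WT, which understates the change of low genes. The number of fragments behind a value cannot be read from the table. By the study's methods both *Snord116del* libraries at Zt +6 had fewer reads than each WT library of that time, and the part of depth in the results was not tested. The labels of both *Snord116del* mice and of 1 of the 3 WT mice at Zt +6 name an earlier version of the table, while those of the other 2 WT mice at Zt +6 and of all 4 mice at Zt +16 name the version used here; its part in the results was not tested. In bulk tissue, fewer cells of a type and less RNA per cell cannot be told apart.

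The light-phase *Snord116del* cortex had higher values for very many genes and lower values for few. Past the fold rule were 5858 of the 10297 tested genes (56.9%), of which 5073 (49.3% of those tested) were higher and 785 (7.62%) were lower. Thus 86.6% of the genes past the rule were higher in *Snord116del*, and the median log2 change over all tested genes was 0.57, with an interquartile range of 0.06 to 1.03. The summed FPKM of the table was nearly the same in both groups, 159300 in WT against 160199 in *Snord116del*, while the median tested gene had 3.17 FPKM in WT against 5.63 in *Snord116del*. At Zt +16 the summed FPKM was 216422 in WT against 342188 in *Snord116del*, and values of that time are given without adjustment for it. The split of directions depended on how the groups were scaled. With *Snord116del* values multiplied by 0.562, which gives both groups the same median, 1387 genes were higher and 2407 lower, and the median change moved from 0.57 to -0.06.

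**Figure D1:**
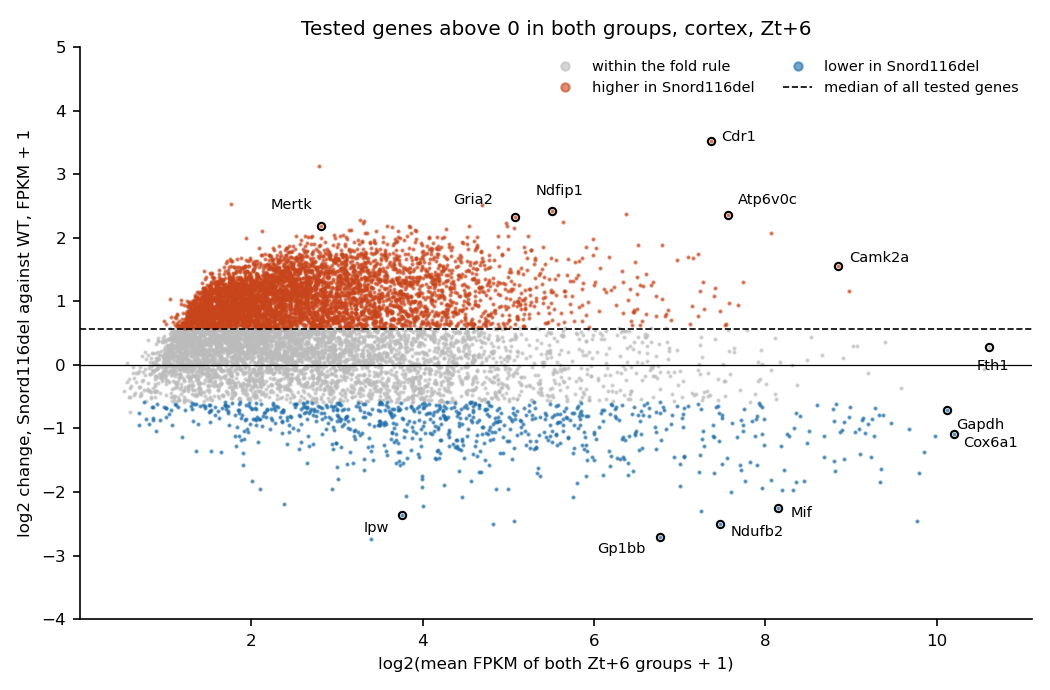
Log2 change of FPKM + 1 at Zt +6 against the log2 of the mean FPKM of both groups plus 1, 1 point per tested gene above 0 in both groups. Genes past the fold rule are coloured by direction, the dashed line is the median change of 0.57, and named genes are ringed. Higher genes fill the low and middle range, and lower genes reach the far right, where *Cox6a1* and *Gapdh* lie. With both groups scaled to the same median, all points would move down and 2407 genes would be past the rule on the low side.

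The largest rise among genes with at least 1 FPKM in both groups and a transcript of at least 500 bases, 9079 genes in all, was that of *Cdr1* (X: 58436421 to 58438733 in NCBIM37, minus strand). *Cdr1* was at 25.3 FPKM in WT against 301 in *Snord116del*, a log2 change of 3.52. At Zt +16 it was far lower in both genotypes, at 1.46 and 3.13 FPKM. The *Cdr1* locus is known to produce an abundant circular RNA from the opposite strand. The strand used in counting is not given in the sources used here, so the value may hold reads of either strand.

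The rest of the 12 largest rises covered several functions. *Tmem30a*, which encodes a subunit of phospholipid flippases, went from 6.69 to 43.0 FPKM (log2 change 2.52). *Ndfip1*, an adaptor that recruits Nedd4-type ubiquitin ligases, went from 13.4 to 76.1 FPKM (2.42). *Atp6v0c*, the proton-binding subunit of the vacuolar proton pump, went from 60.5 to 315 FPKM (2.36), yet it was listed at 0 in WT and at 0.486 FPKM in *Snord116del* at Zt +16. Several others act at the synapse or on the cytoskeleton. *Gria2*, the AMPA receptor subunit that makes the channel impermeable to calcium, was at 10.2 and 55.4 FPKM (2.33). *Dgkb*, a diacylglycerol kinase, was at 2.31 and 15.1 FPKM (2.28). *Ttll7* modifies tubulin with glutamate chains and had log2 change 2.26, and *Nckap1*, a subunit of the WAVE actin regulator, had 2.23. The remaining rises were those of the snoRNA host transcript *Snhg11* (25.8 and 139 FPKM), the RNA-binding protein *Qk* that acts in myelination (16.4 and 81.3 FPKM), the Golgi GTPase *Arl1* (2.48 and 15.3 FPKM) and *Mertk*. *Mertk* encodes a receptor kinase with which glia take up debris, and it was at 1.52 and 10.5 FPKM. Each of the 12 genes stayed higher in *Snord116del* under every scaling tried.

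The 12 largest falls came from abundant transcripts, most of them short. *Gp1bb*, a platelet glycoprotein gene whose exons overlap those of the neuronal septin *Sept5* on the same strand, was at 188 FPKM in WT against 28.0 in *Snord116del* (log2 change -2.70). *Ndufb2*, an accessory subunit of respiratory complex I, was at 300 and 52.2 FPKM (-2.50). Its annotated exons overlap those of other genes on both strands. *Siva1*, a regulator of cell death, was at 47.2 and 7.51 FPKM (-2.50), and *Rnaseh2c*, a subunit of the enzyme that cuts RNA in RNA-DNA hybrids, at 55.9 and 9.35 FPKM (-2.46). The cytokine *Mif* was at 468 and 97.3 FPKM (-2.26), and the nucleotide hydrolase *Hint1* at 508 and 129 FPKM (-1.96). Further falls of this size were those of the annotated pseudogene *Gm1821* (-2.30), the mitochondrial ribosomal gene *Mrpl14* (-2.08), the glutathione transferase *Gstp2* (-2.08), the uncharacterised *Gm1673* (-2) and the complex I gene *Ndufc1* (-1.96). *Gm1821* and *Gstp2* have close copies elsewhere in the genome, so their values are uncertain. *Calb2*, which encodes the calcium buffer calretinin of a class of cortical interneurons, was the only one of the 12 on the marker lists of neural cell types, at 21.5 and 4.40 FPKM (-2.06). At Zt +16, *Calb2* was at 29.2 FPKM in WT against 28.0 in *Snord116del*, so the genotypes lay close together there. The values of the other 11 were higher in *Snord116del* at that time, when its summed FPKM was higher too.

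The most abundant transcripts included genes of both directions. *Cox6a1*, a cytochrome c oxidase subunit, had the highest value of WT at Zt +6, 1607 FPKM, and 754 in *Snord116del*. *Fth1*, the heavy chain of the iron store ferritin, was highest in *Snord116del*, at 1712 FPKM against 1406 in WT. *Cst3*, a secreted protease inhibitor, was at 1528 and 1463 FPKM, and *Cpe*, which trims prohormones, at 588 and 755 FPKM. The latter 3 genes differed by less than 1.5-fold. *Gapdh*, a glycolytic enzyme often used as a reference, was at 1386 FPKM in WT against 843 in *Snord116del* (log2 change -0.72). Its log2 change at Zt +6 was 0.11 after quantile normalization. At Zt +16, when the summed FPKM was higher in *Snord116del* as well, *Gapdh* was at 1694 and 3368. *Gapdh* has many processed pseudogenes, so its value is uncertain.

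The direction of change was graded by transcript length. Genes were placed in 10 classes of equal size by their longest annotated transcript, for the 10165 tested genes with an annotation. In the shortest length class (54 to 1165 bases) the median log2 change was -0.40, with 105 genes higher and 394 lower past the fold rule. The median rose with each class, to 0.48 in the class of 2616 to 3084 bases and 1.25 in the longest class (6491 to 28204 bases), where 936 genes were higher and 2 lower. The share of genes higher in *Snord116del* went from 10.3% to 92.0% across the 10 classes. Across genes, Spearman's rho of the change with transcript length was 0.63, and it was 0.43 with the median annotated transcript length and 0.52 with genomic length. These correlations are across genes of the same group values, which are not independent replicates.

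Levels within each group showed where the gradient lay. In WT at Zt +6 the median FPKM went from 9.40 in the shortest length class to 2.18 in the longest, a ratio of 4.32. In *Snord116del* at Zt +6 it was 7.22 and 6.71, a ratio of 1.08. The Zt +16 groups were steeper than both, with ratios of 8.46 in WT against 10.4 in *Snord116del*. Of the summed FPKM of the annotated tested genes, the shortest length class took 39.5% in WT against 22.9% in *Snord116del* at Zt +6, compared with 46.6% and 48.3% at Zt +16. The longest length class took 2.95% and 7.97% at Zt +6, and 1.61% and 1.35% at Zt +16. The group that stood apart from the other 3 was thus *Snord116del* at Zt +6, in which long transcripts had relatively high and short transcripts relatively low values. At Zt +16, with the summed FPKM higher in *Snord116del*, 19% of the tested genes were higher and 0.204% lower in that genotype. The median change at Zt +16 decreased with length, from 0.57 in the shortest to 0.20 in the longest length class. RNA quality of each sample is given in the methods only as a minimum that all passed, and the part of RNA quality or library preparation in the gradient was not tested.

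**Figure D2:**
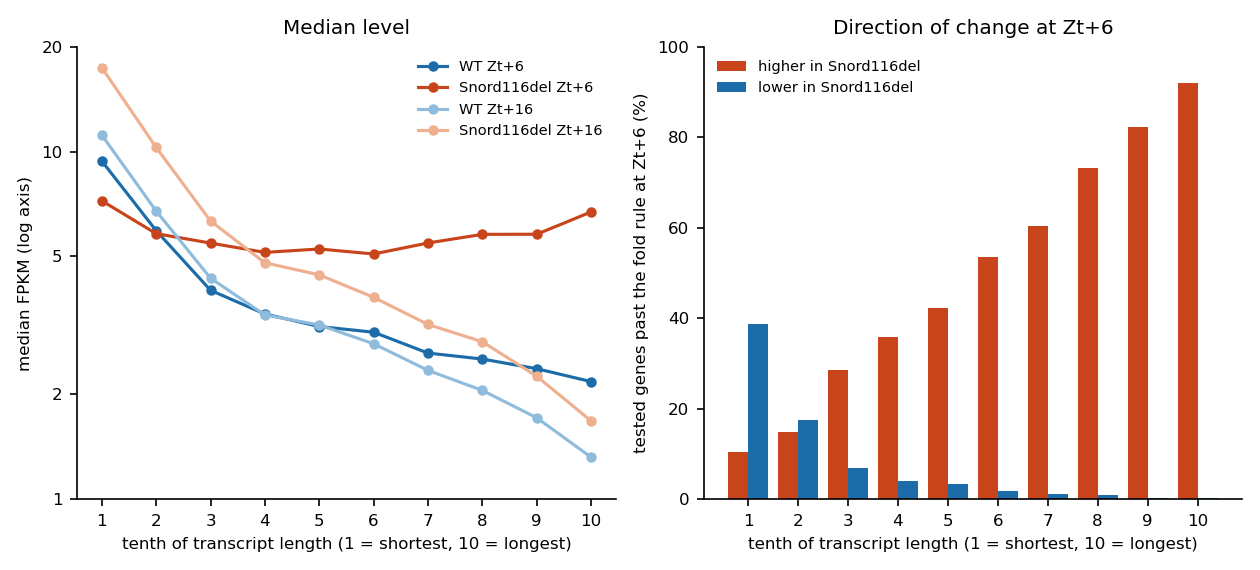
Left, median FPKM (log axis) of the tested genes in each class of transcript length for the 4 groups. Right, percentage of genes in each length class past the fold rule at Zt +6 in each direction. In the left panel *Snord116del* at Zt +6 stays between 5.07 and 7.22 FPKM while the other groups decline, and on the right the share of higher genes climbs from 10.3% to 92.0%.

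Abundance added a second gradient among short transcripts. In the top of 5 abundance classes by mean FPKM, with 13.5 FPKM or more, the median log2 change was -0.07, with 491 genes higher and 549 lower. The other abundance classes had medians between 0.55 and 0.78. Within the shortest length class the median went from 0.04 in the least to -0.91 in the most abundant class, and within the longest from 1.06 to 1.39. Protein-coding genes had a median of 0.58 (9944 genes) and long intergenic noncoding RNA genes 0.33 (92 genes), and chromosome medians ran from 0.42 on chromosome 7 to 0.80 on chromosome 18. After the comparison with genes of like length and abundance described next, chromosome medians lay between -0.07 and 0.11.

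Because of these gradients, each gene was also compared with genes of like length and abundance. Its change was taken relative to the median of its class, from 10 classes of length and 5 of mean FPKM within each. By the same fold, 1209 of the 10165 genes (11.9%) were then higher and 1234 (12.1%) lower. The split of directions is near even because each class is centred on its own median. The choice of length mattered for which genes these were: with the median annotated transcript length, 65.3% of the higher and 71.6% of the lower genes were still past the fold.

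*Cdr1* had the largest relative rise too (3.46), followed by *Ndfip1* (3.13), *Atp6v0c* (2.30), *Purb* (2.18), *Tmem30a* (2.01) and *Eno1* (2.00). *Purb*, a single-strand nucleic acid binding protein, was at 8.17 FPKM in WT against 34.0 in *Snord116del*. *Eno1*, a glycolytic enolase with processed copies in the genome, was at 46.5 and 174 FPKM. The largest relative falls were those of *Ndufb2* (-3.32), *Gp1bb* (-2.58), *Naca* (-2.25), *Mrpl13* (-2.16), *Atp5g1* (-2.15) and *Ndufb7* (-2.14). *Naca* encodes part of the complex that binds nascent proteins at the ribosome, and *Atp5g1* the ring subunit of ATP synthase. All of these falls but that of *Gp1bb* belong to genes whose longest annotated transcript is well above the median of their transcripts, 4371 against 572 bases for *Ndufb2* and 6008 against 709 for *Mrpl13*. With the median length, the relative changes were -1.63 for *Ndufb2*, -0.64 for *Mrpl13* and -0.90 for *Atp5g1*.

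In the Prader-Willi domain itself, the noncoding transcripts of the host locus were lower and the tested protein-coding genes around it were higher as deposited. *Snord116* was listed at 0 in all 4 groups, as was *Snord64*, so the deletion could not be checked on the snoRNA itself. *Ipw*, a noncoding transcript that lies within the same host transcript, was at 21.6 FPKM in WT against 3.40 in *Snord116del* at Zt +6 (log2 change -2.36), compared with 3.17 and 1.82 at Zt +16. *D7Ertd715e*, which RefSeq (GRCm38.p6) lists as an earlier name of the host transcript *Snhg14*, was at 1.13 and 0.0470 FPKM at Zt +6 and 0.288 and 0.0278 at Zt +16. Its mean was under the filter. Both were lower in *Snord116del* at each time.

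Of the 23 genes listed for the domain 13 were tested, and 12 were higher and 1, *Ipw*, lower past the fold rule, where 49.3% of all tested genes were higher. *Snrpn*, an Sm protein of neuronal spliceosomes, was at 65.3 and 105 FPKM (0.68), and *Snurf*, read from the same transcript, at 18.9 and 29.1 (0.60). Both changes turned negative when the groups were scaled to the same median (-0.14 and -0.20), but were 0.80 and 0.32 after quantile normalization. Relative to genes of like length and abundance *Snrpn* was at 0.80, past the fold, and *Snurf* had no annotated length. *Ndn*, a paternally expressed regulator of neuronal differentiation, was at 12.7 and 24.9 FPKM (0.92), and its change was 1.44 relative to genes of like length and abundance. *Ube3a*, the ubiquitin ligase of Angelman syndrome that neurons express from the maternal copy (chromosome 7: 66484122 to 66562097, plus strand), was at 1.55 and 5.41 FPKM (1.33). Relative to its class, *Ube3a* was at 0.28, within the fold. Among the GABA receptor genes of the domain, *Gabrg3* was at 0.953 and 3.52 FPKM (1.21, relative 0.15) and *Gabra5* at 8.26 and 13.1 (0.61, relative 0.16). *Gabra5* too had a negative change with the same median.

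Genes of the outer part of the domain were higher as well. *Nipa1*, a magnesium transporter, was at 2.72 and 9.29 FPKM (1.47, relative 0.90). The giant ubiquitin ligase *Herc2* (1.16), the magnesium transporter *Nipa2* (1.03), the translation and actin regulator *Cyfip1* (1.19) and the tubulin complex subunit *Tubgcp5* (0.96) had relative changes between -0.26 and 0.20. Over the 11 members with a length the median relative change was 0.20, with 4 of them past the fold above their class and none below, and like genes were higher as deposited in 61.6% of cases. Members under the filter were low in both groups: *Magel2* was at 0.285 and 0.482 FPKM, *Mkrn3* at 0.215 and 0.361, *Peg12* at 0.178 and 0.241, *Atp10a* at 0.429 and 1.58, and *Oca2* at 0.0996 and 0.0482. The expressed sequences *A230057D06Rik* and *A330076H08Rik* were at 0.544 and 2.06 and at 0.450 and 2.81.

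**Figure D3:**
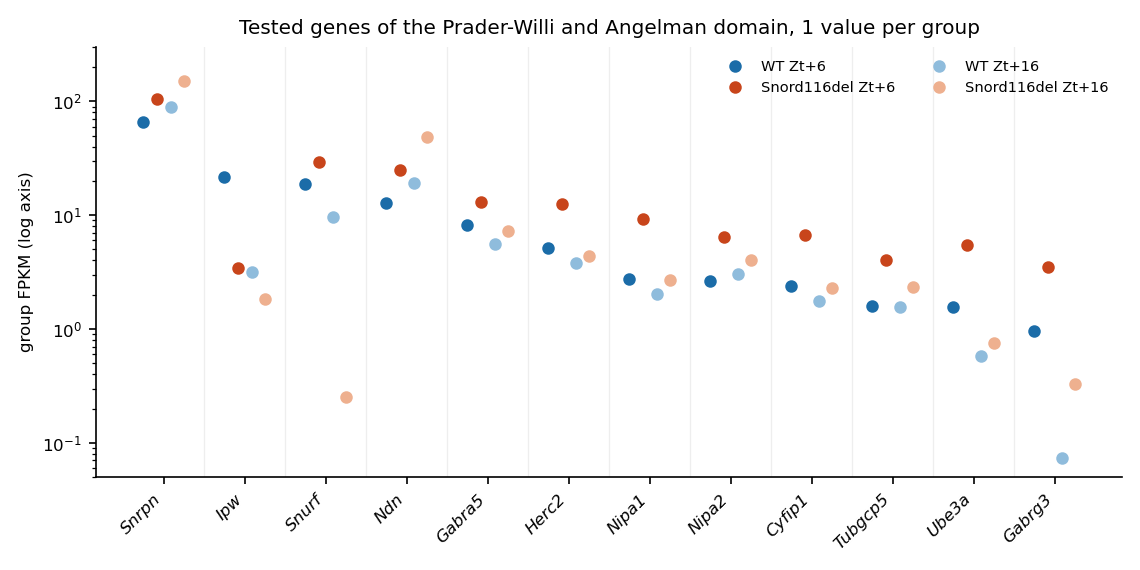
FPKM (log axis) of 12 tested genes of the Prader-Willi and Angelman domain, 1 point per group, ordered by WT level at Zt +6. *Ipw* is the only one drawn that is lower in *Snord116del* at Zt +6, at 3.40 against 21.6 FPKM, and *Snurf* is at 0.255 FPKM in *Snord116del* at Zt +16.

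Respiratory chain genes, most of them with short messages, were lower more often than not. Of 80 tested genes of the respiratory chain and ATP synthase, which make most cellular ATP, 47 were lower and 4 higher, with a median log2 change of -0.71 against 0.57 over all tested genes. Genes of like length and abundance were lower in 47.2% of cases on average, and the median relative change of the list was -0.15. By complex, 23 of 37 complex I genes were lower and 2 higher, and 11 of 15 complex IV genes were lower and 1 higher. Of the ATP synthase genes 10 of 14 were lower and none higher, and of complex III and cytochrome c 3 of 10 were lower. Genes like them were lower in 50.7%, 52.1%, 42.7% and 44.7% of cases, in the same order. The relative medians were -0.14, -0.18, -0.54 and 0.18. Of the 4 complex II genes, whose transcripts are longer, *Sdhc* was higher (5.34 and 11.2 FPKM) and the other 3 were within the fold. *Cox6c*, a small subunit of complex IV whose exons overlap another gene on the opposite strand, was at 1358 and 417 FPKM (-1.70). *Ndufa10*, a longer complex I message, went the other way, from 8.14 to 18 FPKM (1.06).

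Ribosomal protein genes of the cytosol and of mitochondria were both lower as deposited, but parted once length and abundance were taken into account. For the cytosolic ribosome, 31 of 82 genes were lower and 6 higher, with a median of -0.42 as deposited and 0.30 relative to like genes, of which 52.5% were lower. *Rpl36* was at 658 and 230 FPKM (-1.51), *Rps21* at 1335 and 515 (-1.37), *Rpl41* at 1384 and 635 (-1.12), and *Rplp0* at 10.5 and 21.8 (1.00). Reads of these genes can be shared with processed pseudogenes, so single values are uncertain. The small subunit had a median of -0.23 and the large subunit of -0.49, and relative medians of 0.52 and 0.16. For the mitochondrial ribosome, 29 of 74 genes were lower and 1 higher, where like genes were lower in 24.8% and higher in 23.6% of cases. The median was -0.41 as deposited and -0.28 relative, and 23 genes were past the fold below their class and none above. *Mrpl52* was at 105 and 30.8 FPKM (-1.73). *Mrps21* was at 72.7 and 41.6 (-0.79, relative 0.12), and *Mrpl50* at 2.57 and 4.47 (0.62, and -0.02 with the same median). *Mrpl14*, named above, was the lowest in change of this list.

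Proteasome genes and, less closely, spliceosomal core genes were split in direction along transcript length. Of 43 proteasome genes 9 were higher and 12 lower, with a median of -0.14, where like genes were higher in 21.3% and lower in 22.4% of cases. The core particle, which cuts proteins and is built of short messages, had 7 of 15 genes lower and 1 higher (median -0.58, relative -0.16). Genes like these were lower in 36.5% and higher in 10.5% of cases. The lid and base subunits outside the ATPases had 5 of 14 higher and 2 lower (median 0.23, and -0.42 with the same median). Like genes were higher in 27.3% and lower in 12.0% of cases there. Of the 6 ATPase genes 1 was higher, where like genes were higher in 21.1% of cases. *Psmb5*, a catalytic subunit, was at 76.5 and 30.2 FPKM (-1.31), and *Psmb10*, a catalytic subunit of the immune form, at 13.7 and 4.24 (-1.49). *Psmd3*, a lid subunit, was at 6.25 and 23.7 (1.77), the highest of the list. Spearman's rho of change with transcript length over the 43 genes was 0.63. Among 30 genes of the Sm and Lsm list, 7 were higher and 7 lower, where like genes were higher in 25.8% and lower in 20.7% of cases. Over these 30 genes rho with length was 0.40. *Snrpg* was at 190 and 64.0 FPKM (-1.55) and *Lsm7* at 103 and 39.7 (-1.36). *Snrnp200*, a long helicase message that the list holds although it encodes no Sm or Lsm protein, was at 3.44 and 10.9 (1.42).

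**Figure D4:**
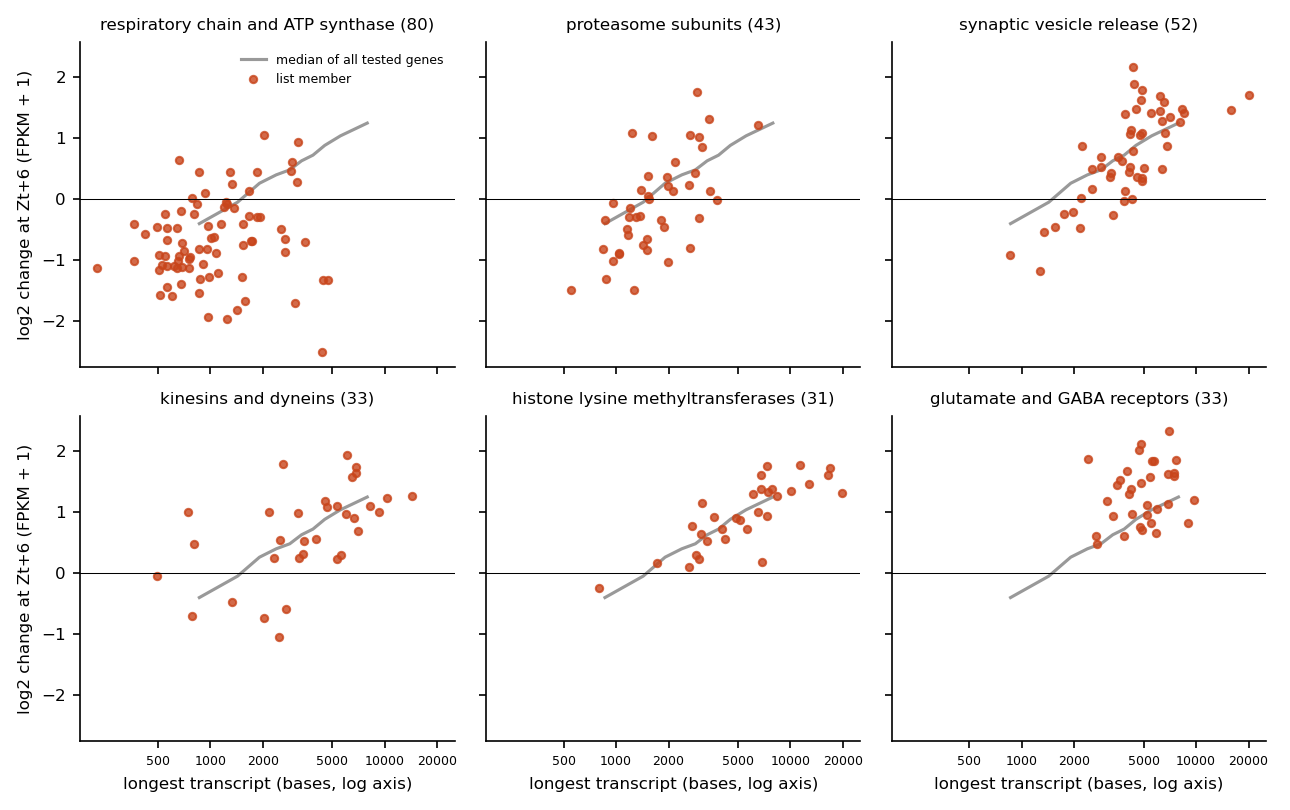
Log2 change at Zt +6 against the longest annotated transcript (log axis) for the members of 6 gene lists, with the median of all tested genes in each class of length as a grey line. Proteasome, vesicle release and methyltransferase genes climb with length near the line, kinesins and dyneins scatter more widely around it, respiratory chain genes lie mostly below 0, and receptor genes lie on or above the line in most cases.

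Glutamate and GABA receptor genes were nearly all higher. Of 33 tested such genes 32 were higher and none lower, with a median of 1.30, and like genes were higher in 72.3% of cases. Their median relative change was 0.28, with 10 above and none below their class by the fold. *Gabrd*, at 13.5 and 19.3 FPKM (0.48), was the member within the fold. All 4 AMPA, 5 NMDA, 5 kainate and delta and 6 metabotropic glutamate receptor genes were higher, with medians of 1.35, 1.59, 0.83 and 1.26. Genes like them were higher in 83.4%, 80.2%, 76.1% and 73.8% of cases, in the same order. For the 13 GABA receptor genes the median was 1.53 and the relative median 0.59, the largest among these subgroups. *Gabbr2*, a subunit of the slow GABA receptor, was at 27.3 and 100 FPKM (1.84), and its partner *Gabbr1* at 35.1 and 68.7 (0.95, relative -0.14).

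Most ion channel genes were higher too. Of 55 potassium channel genes 39 were higher, 3 lower and 13 within the fold (median 0.98, relative 0.17), where like genes were higher in 60.2% of cases. Of 30 sodium and calcium channel genes 26 were higher and 1 lower (1.23, relative 0.18), where like genes were higher in 72.3% of cases. All 25 voltage-gated potassium pore genes but 5 were higher, where like genes were higher in 71.5% of cases. *Kcnq3*, which carries the M current, was at 2.84 and 15.2 FPKM (2.08). The 3 potassium channel genes lower past the rule were 2 accessory subunits and the inward rectifier *Kcnj4* (16.2 and 9.72 FPKM, -0.68). *Kcnmb4*, a regulator of calcium-activated potassium channels, was at 36.8 and 21.3 (-0.76), and *Kcne1l* at 2.24 and 0.752 (-0.89). *Cacna1b*, the pore of N-type calcium channels at nerve terminals, was at 2.84 and 13.6 (1.93).

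At the synapse, postsynaptic genes were mostly higher and release genes were higher or within the fold in most cases. Of 30 postsynaptic scaffold and adhesion genes 26 were higher and none lower (median 1.28, relative 0.26), where like genes were higher in 77.9% of cases. *Homer1*, a scaffold of metabotropic receptors, was at 11.3 and 53.5 FPKM (2.15), whereas *Dlgap4* (15.9 and 16.5) and *Nrxn2* (27.3 and 36.4) were within the fold. Of 52 vesicle release genes 28 were higher and 2 lower (median 0.69, relative -0.01), where like genes were higher in 57.5% of cases. *Rab3a*, a vesicle GTPase, was at 138 and 100 FPKM (-0.46), the SNARE *Snap25* at 481 and 590 (0.29), and the vesicle glycoprotein *Sv2a* at 10.5 and 51.0 (2.18). Spearman's rho of change with length over the 52 genes was 0.73.

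Adhesion and motor genes were mostly higher as well. Of 46 cadherin and protocadherin genes 42 were higher and none lower (median 0.95). For the 30 of them with an annotated length the relative median was 0.17, and like genes were higher in 75.2% of cases. *Pcdh7* was at 3.33 and 18.7 FPKM (2.19) and *Cdh20* at 1.31 and 1.45. The clustered protocadherins, of which 19 of 22 were higher, share exons, so their values are not separate. Genes like the 6 of them with an annotated length were higher in 62.8% of cases. Collagen, laminin and integrin genes had 9 of 13 higher and none lower (median 0.94, relative -0.11), where like genes were higher in 79% of cases, with *Itgav* at 2.53 and 12.8 FPKM (1.97). Of 33 kinesin and dynein genes 18 were higher and 3 lower (0.91, relative -0.09), where like genes were higher in 56.7% of cases. *Kif5b*, a motor of anterograde transport, was at 5.21 and 22.8 FPKM (1.94). Dynein light chains included genes of the other direction, with 3 of 7 lower, where like genes were lower in 18.4% of cases. Among the lower ones were *Dynll2* (207 and 99.6, -1.05) and *Dynlrb1* (187 and 115, -0.69, relative 0.22).

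Chromatin genes were higher as a class and lay close to the median of genes like them. Of 31 tested histone lysine methyltransferase genes and partners 23 were higher and none lower (median 0.94), like genes were higher in 71.9% of cases, and the relative median was 0.06. *Ash1l* had the largest change, from 3.96 to 16.0 FPKM (1.77). *Dpy30*, a short subunit of the H3K4 complexes, had the lowest, 8.29 and 6.83. Over the 12 genes of H3K4 methyltransferases and their core subunits, 7 were higher and none lower. Genes like these were higher in 64.4% and lower in 4.31% of cases. The relative median was 0.02, and rho between change and transcript length was 0.92. Acetyltransferases and deacetylases had 15 of 29 higher and 1, the mitochondrial deacylase *Sirt5* (4.09 and 2.19), lower, with a median of 0.61 that turned to -0.05 with the same median and to -0.08 relative. The acetyltransferases *Crebbp* (5.31 and 17.5 FPKM, 1.55, relative 0.14) and *Ep300* (3.52 and 14.5, 1.78, relative 0.36) were among the higher ones. Over the 29 genes rho with length was 0.89, and over the 31 methyltransferase genes 0.82.

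Chromatin remodellers had 22 of 25 genes higher (median 1.22), where like genes were higher in 86.9% of cases, and a relative median of 0.02. *Chd3* was at 8.96 and 27.7 FPKM (1.53), *Smarca2* at 21.2 and 40.7 (0.91, relative -0.18) and *Smarcb1*, a BAF core subunit, at 21.0 and 14.9 (-0.47). The 165 tested Zfp zinc finger genes had 98 higher and 7 lower (like genes were higher in 57.6% of cases), a median of 0.72 and a relative median of 0.00, with 17 genes past the fold on each side of their class. Replication-dependent histone genes, whose messages are very short, had 13 of 43 higher and 5 lower, where like genes were higher in 19.2% and lower in 16.2% of cases. Their median of 0.36 was -0.26 with the same median and 0.39 relative. *Hist1h2bc* was at 94.2 and 67.2 FPKM. Many histone genes are near-identical, so their values are uncertain.

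**Figure D5:**
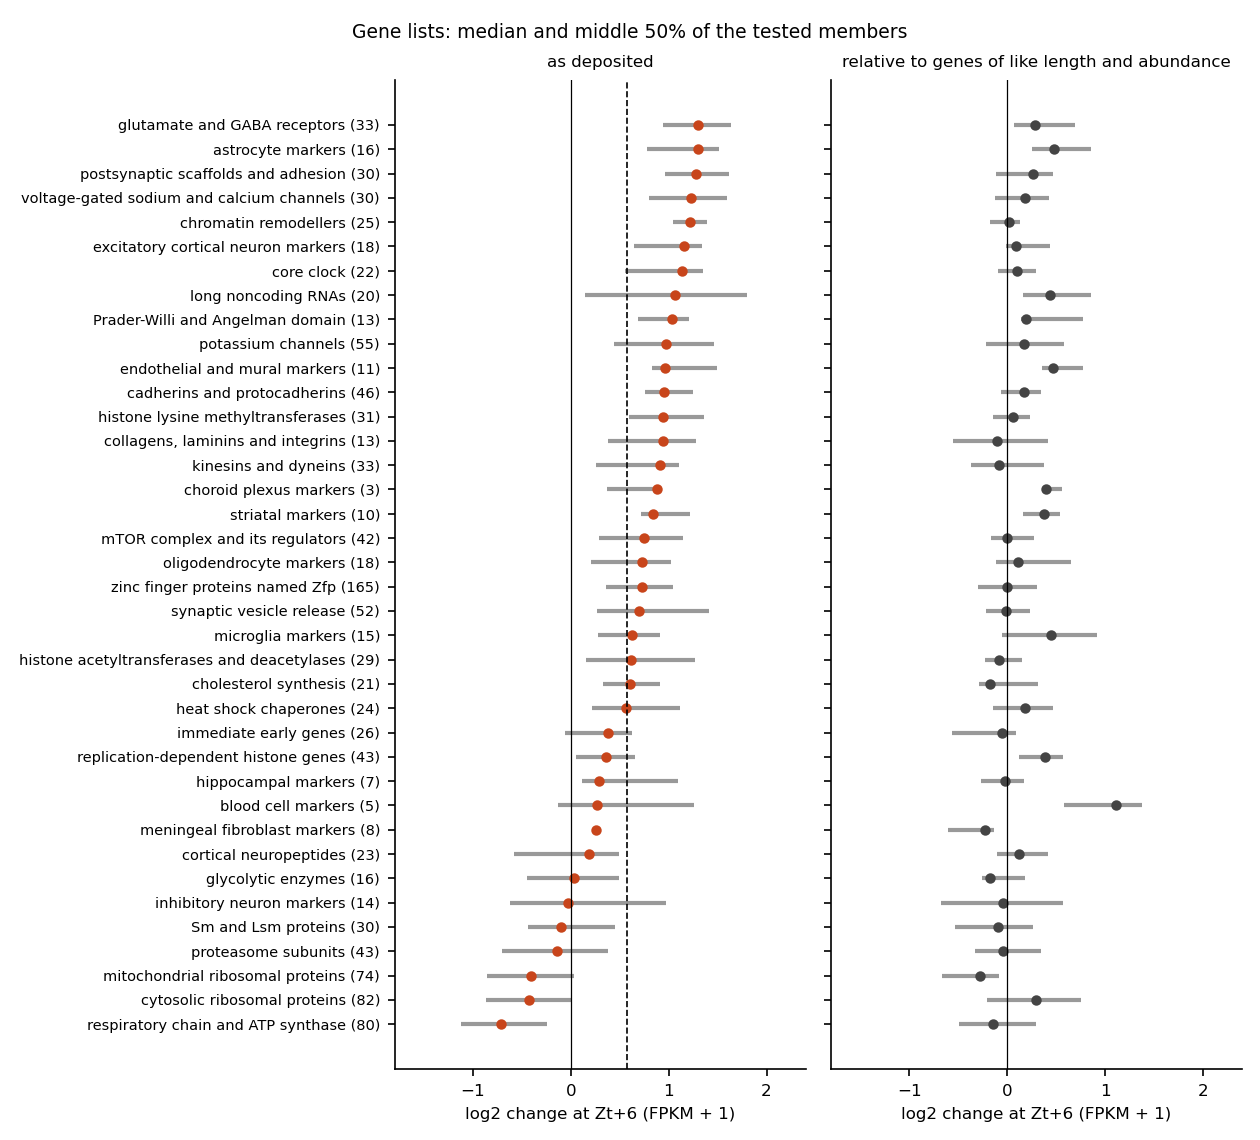
Median (point) and interquartile range (bar) of the log2 change at Zt +6 over the tested members of each gene list, with the number tested in brackets. The left panel shows values as deposited with the median of all genes, 0.57, as a dashed line, and the right panel the change relative to genes of like length and abundance. Medians run from -0.71 to 1.30 on the left, and all but that of the blood cell markers lie between -0.28 and 0.48 on the right. With both groups scaled to the same median, 13 of all 40 lists had a median of the other sign or of 0, and the small RNA lists are not drawn.

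Core clock genes were higher or within the fold. Of 22 tested, 16 (72.7%) were higher and none lower, where like genes were higher in 65.1% and lower in 1.76% of cases. The median was 1.13, and the relative median was 0.11 with 3 genes past the fold on each side. *Clock*, the activating transcription factor, was at 2.64 and 9.77 FPKM (1.56, relative 0.15). *Per2*, a repressor of the loop, was at 3.34 and 8.85 (1.18, relative 0.07). *Cry1*, its partner, was at 1.87 and 3.14 (0.53, relative -0.04) and did not pass the fold rule. Its change was 0.72 with a pseudocount of 0.1 FPKM, which is past the fold, and -0.06 with the same median. Of the nuclear receptors that feed into the loop, *Nr1d1* was at 9.79 and 30.8 FPKM (1.56, relative 1.36), although its exons overlap those of a thyroid hormone receptor gene on the opposite strand, and *Rorb* was at 1.82 and 9.50 (1.89, relative 0.58). *Tef* (20.5 and 24.0) and *Nfil3* (2.44 and 1.79) were within the fold. At Zt +16 the median change of the list was 0.26.

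Genes of mTOR signalling, which couples nutrients to growth, had values close to those of genes like them. Of 42 tested 26 were higher and 1 lower (61.9% and 2.38%), where like genes were higher in 58.8% and lower in 4.85% of cases, and the median was 0.75 (relative 0.00). *Mtor* was at 5.32 and 8.95 FPKM (0.65), lower than genes of like length and abundance by the fold (relative -0.73) but at 0.31 when the median annotated length was used, and at -0.07 with the same median. The receptor substrate *Irs2* was at 2.87 and 10.9 FPKM (1.63, relative 0.79). *Akt1*, the central kinase, was at 19 and 20.2, and *Lamtor3* at 15.8 and 13.6. *Ddit4*, a stress-induced inhibitor of the pathway, was the one member past the fold below, at 11.8 and 4.74 (-1.16, relative -0.91). Of the 13 genes from the insulin receptor to Akt, 11 were higher (median 1.23), where like genes were higher in 75.2% of cases.

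Metabolic and stress lists held genes of both directions. Glycolytic enzymes had 2 of 16 higher and 4 lower (median 0.04, and -0.77 with the same median). Genes like them were higher in 24.5% and lower in 19.9% of cases. *Aldoa* was at 545 and 338 FPKM (-0.69), a change that was 0.11 after quantile normalization, and *Pkm2* was at 304 and 169 (-0.85). Cholesterol synthesis genes had 12 of 21 (57.1%) higher and 1 lower, where like genes were higher in 51.9% of cases. Their median of 0.60 was -0.05 with the same median and -0.17 relative. Among these *Srebf2*, their transcriptional activator, was at 2.50 and 9.19 (1.54), and *Pmvk*, a short enzyme message, at 30.4 and 11.4 (-1.34). Heat shock chaperones had 12 of 24 higher and 2 lower (0.56, and -0.16 with the same median), where like genes were higher in 42.4% of cases. *Hspa8* was at 468 and 572 FPKM, *Hspa4l* at 3.58 and 16.2 (1.91), and *Hspe1*, the small mitochondrial co-chaperone, at 83.6 and 34.3 (-1.26).

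Immediate early genes, which neuronal activity induces within minutes, had 7 of 26 (26.9%) higher and 3 lower, where like genes were higher in 42.2% of cases. Their median was 0.38, -0.33 with the same median and -0.06 relative. *Homer1*, described above, and *Arc*, which controls AMPA receptor uptake, lay highest, *Arc* at 49.5 and 130 FPKM (1.38, relative 1.18). *Egr4* was at 29.0 and 7.05 (-1.89, relative -2.06), while its relative *Egr1* was at 52.6 and 72.8 (0.46, relative -0.02).

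Markers of the cell types of cortex were well represented in both groups, and none of the defining markers of neurons or glia was listed at 0. Excitatory neuron markers had 14 of 18 higher and none lower (median 1.16, relative 0.09), where like genes were higher in 68.7% of cases, and their summed level was 417 FPKM in WT against 997 in *Snord116del*. *Camk2a*, a kinase of excitatory synapses, made up most of this sum, at 234 and 688 FPKM (1.55). *Mef2c* was at 8.97 and 37.5 (1.95), and the vesicular glutamate transporter *Slc17a7* at 105 and 127 (0.27). Of 14 inhibitory neuron markers 4 were higher and 5 lower (median -0.02, relative -0.04), where like genes were higher in 37.0% and lower in 19.5% of cases. Their summed level was 656 and 522 FPKM. Their transcripts were shorter, with a median of 2634.5 bases against 4762.5 for the excitatory markers, and both relative medians were small. The peptide *Sst* was at 291 and 193 (-0.59, relative 0.32), just past the fold, and the peptide *Npy* at 200 and 167 (-0.26), within it.

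Astrocyte and vascular markers were mostly higher. Microglia and oligodendrocyte markers were higher little more often than the 49.3% of all tested genes, but more often than genes like them. Each of these lists had a positive relative median. Astrocyte markers had 14 of 16 higher and none lower (median 1.30, relative 0.48, with 6 past the fold above their class and none below), where like genes were higher in 50.5% of cases. *Slc1a3*, a glutamate transporter, was at 16.2 and 58.7 FPKM (1.80, relative 0.98), while the abundant *Apoe* (863 and 667) and *Aldoc* (275 and 261) were within the fold. All 11 tested endothelial and mural markers were higher (0.97, relative 0.47), where like genes were in 51.9% of cases, with *Rgs5*, a pericyte gene, at 6.56 and 22.0 (1.61) and *Ly6c1*, an endothelial surface protein, at 33.5 and 55.5 (0.71, and -0.10 with the same median). Microglia markers had 8 of 15 higher and 1 lower, with a median of 0.62 that was -0.14 with the same median and 0.45 relative. The purine receptor *P2ry12* was at 2.69 and 11.9 (1.80), and the short adaptor *Tyrobp* at 47.7 and 29.5 (-0.67, relative 0.04). Oligodendrocyte markers had 10 of 18 higher and none lower (0.73, -0.03 with the same median, relative 0.12), where like genes were higher in 44.8% of cases. The myelin gene *Mbp* was at 314 and 425 (0.43).

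Markers of blood and of tissues beside the cortex were present in both groups. Choroid plexus markers summed to 213 FPKM in WT against 208 in *Snord116del* at Zt +6, against 29.2 and 35.5 at Zt +16, and *Ttr*, the defining one, was at 200 and 182 FPKM at Zt +6. *Ttr* made up most of that sum and was within the fold. The other 2 of the 3 tested choroid plexus markers were higher, where like genes were higher in 26.0% of cases. These were *Enpp2*, at 12.6 and 24.0 FPKM, and *Kcnj13*, at 0.625 and 2.20 FPKM. Blood cell markers summed to 894 and 887 FPKM, and 3947 and 4256 at Zt +16. Of the 5 tested blood cell markers 2 were higher and 1 lower at Zt +6, so the near-equal sum does not hold for each marker. Genes like the 4 with an annotated length were higher in 11.2% and lower in 50.4% of cases. Meningeal fibroblast markers summed to 18.9 and 22.7, and hippocampal markers to 24.1 and 36. Striatal markers summed to 213 and 211 FPKM. Of the 10 tested striatal markers 8 were higher and 1 lower (median 0.84, relative 0.38), where like genes were higher in 41.0% of cases. *Penk*, an opioid peptide precursor, was at 145 and 98.0 (-0.56). The part of dissection in these values was not tested.

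Neuropeptide genes and their processing enzymes had 5 of 23 (21.7%) higher and 6 (26.1%) lower (median 0.19, and -0.41 with the same median). These shares were near those of like genes, which were higher in 21.0% and lower in 23.8% of cases. Peptide precursors, whose messages are short, lay low: *Cck* was at 925 and 491 FPKM (-0.91, relative 0.00) and *Cort*, the cortistatin gene, at 21.7 and 7.35 (-1.44, relative -0.73). *Pcsk1*, a long convertase message, was highest at 2.54 and 8.24 (1.38, relative 0.82). Over the 23 genes rho with length was 0.74.

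Listed long noncoding RNAs were mostly higher. Of 20 tested 13 were higher and 2 lower, with a median of 1.07. For the 17 with an annotated length the relative median was 0.44, and like genes were higher in 56.2% of cases. *Malat1*, which sits in nuclear speckles, was at 102 FPKM in WT against 433 in *Snord116del* (2.07, relative 0.69), and *Meg3*, an imprinted transcript of chromosome 12, at 67.4 and 228 (1.74, relative 0.36). *Snhg3*, a short spliced snoRNA host, was at 42.5 and 23.1 (-0.85, relative -0.14).

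Small RNA genes could scarcely be compared, since most were listed at 0. Of 121 small nucleolar, Cajal body and spliceosomal RNA genes, 103 were at 0 in WT against 107 in *Snord116del* at Zt +6, and 13 were above 0 in both. *Rmrp*, the RNA of a processing ribonuclease, was at 77.5 and 133 FPKM (0.77, and -0.05 with the same median). *Snora31* was at 32.7 FPKM in WT and listed at 0 in *Snord116del*, and *Snora44* was listed at 0 in WT and at 38.1 in *Snord116del*. Of 615 microRNA genes, 604 and 611 were at 0, and 2 were above 0 in both groups. The libraries were made from total RNA and not by a small RNA protocol, so the values are of the gene entries and not of mature microRNAs.

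*Mir703* was the third highest gene of the WT table, at 1470 FPKM, and was at 268 in *Snord116del* (-2.45). At Zt +16 the order was the other way, 985 and 2582 FPKM. *Mir3062* was at 193 FPKM in WT and listed at 0 in *Snord116del*, and *Mir133a-2* at 134 and 0. *Mir1966*, whose locus lies in exons of *Fam65a*, was listed at 0 in WT and at 502 in *Snord116del*. At Zt +16 it was listed at 0 in WT and at 68.2 in *Snord116del*. FPKM is least stable for entries as short as a microRNA hairpin. The mature RNAs of 3 of them are printed here from RefSeq (GRCm38.p6) because these genes held the extreme small RNA values, with the seed, bases 2 to 8, in capitals. The 4 seeds differ from each other.
mmu-miR-703 (chr5:98475616-98475636, minus strand): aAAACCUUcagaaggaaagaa
mmu-miR-3062-5p (chr11:68990638-68990659, minus strand): gGAGAAUGuaguguuaccguga
mmu-miR-3062-3p (chr11:68990597-68990615, minus strand): cGGGGACAcacuuucuccu
mmu-miR-1966-3p (chr8:105615521-105615543, plus strand): uUUCUGACucaacucucccuuag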

How the data were processed

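Brain cortex of 5 mice at Zt +6 and 4 at Zt +16 was profiled by RNA-seq of total RNA, and the groups follow the labels. Per the submitters' processing notes, the authors used TopHat2 2.0.5 and Cuffdiff 2.0.2 on mm9, and deposited 1 FPKM value per gene and group, pooled over the mice. The table also holds the authors' own fold changes, test statistics and significance calls for each pair of groups, which were not used, and 0 columns of single samples. The methods state the reads of each library, but the table holds no counts, so the number of fragments behind a value is unknown. The strand setting is not given in the sources used here, and the peak lists of the ChIRP experiments were not used here.

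A test across mice (limma) had been planned in case values per mouse were present. The table has group values only, so a fold rule without p-values took its place: a difference of at least 1.5-fold in FPKM + 1, with at least 1 FPKM in the higher group, counting only genes that averaged 1 FPKM or more across the 4 groups. Transcript lengths, biotypes and positions came from GENCODE M1 (NCBIM37), which matched 21853 of 23235 gene symbols and 98.7% of the tested genes. The relative change of a gene is its log2 change minus the median of its class, from 10 length classes with 5 abundance classes in each. The share called for like genes is the mean share over the classes of the list's members with an annotated length, and the relative median covers the same members.

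The members and gene lists were chosen with earlier results of these data known. The genes named are the 12 largest rises and falls among genes with at least 1 FPKM in both groups and transcripts of at least 500 bases, the 6 largest relative rises and falls of the same genes, and in each list the 2 most abundant members and those with the highest and lowest change. All Prader-Willi domain genes, the 4 highest genes of each group, the 3 highest small RNA genes of each group, and *Cdr1*, *Mtor*, *Crebbp*, *Clock*, *Cry1*, *Per2*, *Mertk* and *Gapdh* were named too. *Sdhc* and *Kcnj4* were named after their values were seen, and some genes that the rule names are not reported here. The alternatives were pseudocounts of 0.1 and 0.5 FPKM, other filters, a fold of 2, 3 other scalings and other length measures. The code was tested on simulated data. Python 3.11.15, numpy 2.4.6, pandas 2.3.3, scipy 1.17.1 and matplotlib 3.10.9 were used.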

Additional observations from a re-analysis of the deposited data

How the results depend on the processing

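No paired analysis was possible because the table gives 1 value per group, and for the same reason no mouse could be left out. The 5858 genes past the fold rule became 2390 with a mean of at least 5 FPKM, 3794 with both groups scaled to the same median and 3059 with a fold of 2. The share higher in *Snord116del*, 86.6% as deposited, was 88.0% with the filter on the Zt +6 groups alone, 88.4% with no filter, 70.5% with at least 5 FPKM, 36.6% with the same median, 51.5% after quantile normalization and 89.7% with a fold of 2. Of the 40 gene lists, 33 had a median above 0 as deposited and 20 with the same median. The gap in median change between the longest and the shortest of 10 length classes was 1.65, and 1.05 with the median annotated transcript length. The median took the other sign or was 0 in 13 of the 40 lists with the same median and in 11 relative to genes of like length and abundance. It took the other sign in 6 after quantile normalization. The medians at 0 were those of the small nucleolar, Cajal body and spliceosomal RNA genes with the same median and of the Zfp genes relative to like genes. Among lists whose median as deposited was past 1.5-fold, the sign reversed with the same median for acetyltransferases and deacetylases (-0.050), cholesterol synthesis (-0.051), oligodendrocyte markers (-0.034) and microglia markers (-0.14). Relative to like genes the sign reversed for vesicle release (-0.0095), collagens, laminins and integrins (-0.11), kinesins and dyneins (-0.087), acetyltransferases and deacetylases (-0.083) and cholesterol synthesis (-0.17). Of the named genes past the fold rule, *Gabra5* (-0.14), *Ly6c1* (-0.10), *Mrpl50* (-0.024), *Mtor* (-0.068), *Rmrp* (-0.055), *Snrpn* (-0.14) and *Snurf* (-0.20) changed sign with the same median. Relative to like genes *Cck* (0.0018), *Dynlrb1* (0.22), *Gabbr1* (-0.14), *Herc2* (-0.26), *Mrps21* (0.12), *Mtor* (-0.73), *Smarca2* (-0.18), *Sst* (0.32) and *Tyrobp* (0.043) did so. Beyond what each scaling does by construction, the cause was not tested. The spread between mice is unknown, so no difference can be set against it, and the number of fragments behind a value is unknown too.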
